A study of Homo sapiens with 12 samples.

Results

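The genes described here are the amyloid precursor protein (APP) family and the secretases that cut it. They are 9 of the 60617 genes counted, namely APP, APLP1, APLP2, BACE1, BACE2, PSEN2, NCSTN, APH1A and PSENEN. They were taken by name through their Ensembl identifiers, with APP at the centre. The set was chosen from results of these same libraries, in which APP ranked 1 by p in Viperin + Insulin against Insulin and 7 in the comparison of Viperin over both insulin states. Which of these values decided the choice is not recorded, so the members' differences are given here as a description, with intervals and without p-values, except for the difference of the insulin responses, where an adjusted p stands beside the comparison of the plasmids. All 9 members passed the filter on low counts, which asked for at least 1 count per library on average.

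The libraries are mRNA-seq of 12Z, an immortalized line of epithelial cells from human endometriosis. The 4 groups of 3 libraries were Viperin + Insulin (pCAG Viperin plasmid and 100 nM insulin), Viperin (pCAG Viperin and vehicle), Insulin (pCAG empty vector and 100 nM insulin) and Control (pCAG empty vector and vehicle). Cells of all groups were transiently transfected, serum starved and then kept for 24 h with insulin or vehicle, and the 3 libraries of a group came from independent experiments according to the methods. Viperin, the product of RSAD2, is an interferon-induced enzyme, and the design asks how its overexpression (OE) and insulin change expression alone and together. The 12Z cells are 1 line, and the share of cells that took up the plasmid is not given in the sources used here.

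APP is a membrane protein with a large outer part, one pass through the membrane and a short tail inside the cell, and APLP1 and APLP2 are its paralogs. Beta-secretase, chiefly BACE1, cuts APP outside the membrane and leaves a fragment that gamma-secretase then cuts within the membrane, which gives amyloid beta and frees the tail. Alpha-secretases of the ADAM family cut inside the amyloid beta stretch instead. Gamma-secretase is a complex of a presenilin such as PSEN2, which holds the active site, with nicastrin (NCSTN), APH1A and PSENEN. The same complex cuts Notch receptors and many other membrane proteins. APP is best known from the brain, but it and most of these genes are expressed in many tissues.

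The coding sequence of the part of APP that both secretases act on is shown because every gene described here bears on its cutting or codes for a relative of it. It holds the last 99 codons of APP, 297 bases from exons 16 to 18 of 18, on the minus strand of chr21:25881673-25897623 (GRCh38), from the GENCODE release 44 transcript of a 770-residue protein. The capitals mark the 42 codons of amyloid beta 42, so beta-secretase cuts just before the first capital and gamma-secretase near the last.
APP beta-secretase fragment: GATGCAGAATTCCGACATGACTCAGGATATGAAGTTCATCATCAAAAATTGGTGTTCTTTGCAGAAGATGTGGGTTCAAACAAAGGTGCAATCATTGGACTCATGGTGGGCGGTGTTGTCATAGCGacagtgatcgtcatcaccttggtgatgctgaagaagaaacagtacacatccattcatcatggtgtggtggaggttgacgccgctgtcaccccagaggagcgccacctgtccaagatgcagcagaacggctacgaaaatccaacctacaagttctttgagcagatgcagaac
The 3 family members share a motif in the tail, Asn-Pro-Thr-Tyr, which adaptor proteins bind. It is shown because the adaptors are described with the other pathway genes further on. Each line holds 14 codons with the 4 codons of the motif in capitals, from chr21:25881676-25881717 on the minus strand for APP, chr19:35879397-35879438 on the plus strand for APLP1 and chr11:130143401-130143442 on the plus strand for APLP2.
APP tail: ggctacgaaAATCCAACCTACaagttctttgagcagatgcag
APLP1 tail: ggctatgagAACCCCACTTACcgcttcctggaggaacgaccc
APLP2 tail: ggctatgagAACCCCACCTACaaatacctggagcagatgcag
APP and APLP2 shared 34 of these 42 bases and 12 of 14 residues, APP and APLP1 25 bases and 9 residues, and APLP1 and APLP2 30 bases and 9 residues. The window codes the same 4 motif residues in each gene. The counts below are sums over whole genes and do not tell which spliced forms of APP were present.

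The libraries held 25979022 to 46889002 read pairs assigned to genes. RSAD2 stood at 462 to 609 CPM (read pairs of a gene scaled to the library size, by TMM) in Viperin + Insulin and 384 to 665 CPM in Viperin, against 3.01 to 5.19 CPM in Insulin and 2.28 to 3.48 CPM in Control. RSAD2 was thus high in each library labelled with the Viperin plasmid and low in the others. Whether the others carried the empty vector cannot be read from RSAD2. These counts do not part plasmid from endogenous RSAD2. Of the epithelial markers, KRT8 (1184 to 1413 CPM) and KRT18 (739 to 904 CPM) were high, while EPCAM stood at 0.0770 to 0.832 CPM and CDH1 at 0.789 to 2.03 CPM. KRT19 (432 to 497 CPM) and KRT7 (33.5 to 39.4 CPM) were lower than KRT8 and KRT18. The stromal and mesenchymal markers VIM (1397 to 1723 CPM) and COL1A1 (1123 to 1671 CPM) were about as abundant as KRT8. So was COL3A1 (1288 to 1762 CPM), while COL1A2 (399 to 608 CPM) and PDGFRB (48.4 to 71.8 CPM) were lower. DES stood at 0.0427 to 0.269 CPM. The cells thus carried keratins together with several mesenchymal genes and nearly lacked EPCAM, CDH1 and DES. The 6 stromal and mesenchymal markers summed to 5248 to 5548 CPM in Viperin + Insulin and 5304 to 5458 CPM in Viperin, against 4796 to 4901 CPM in Insulin and 4594 to 4992 CPM in Control. Their sum was thus higher in the Viperin groups, as were the APP values given next. The 6 epithelial markers summed to 2574 to 2707 CPM in Viperin + Insulin and 2453 to 2548 CPM in Viperin, and to 2674 to 2807 CPM in Insulin and 2544 to 2621 CPM in Control, higher with insulin under each plasmid. The 4 endothelial markers summed to 13.2 to 13.9 CPM in Viperin + Insulin, 11.1 to 13.9 CPM in Viperin, 10.0 to 11.1 CPM in Insulin and 10.1 to 11.5 CPM in Control. The part of these sums in the members' values was not tested. The 5 immune markers summed to at most 2.01 CPM and the 5 neuronal markers to at most 12.7 CPM in any library. Mitochondrially encoded genes took 4.28% to 4.52% of assigned read pairs in Viperin + Insulin, 4.81% to 5.34% in Viperin, 5.14% to 5.18% in Insulin and 5.59% to 6.64% in Control. In bulk RNA, fewer cells of a type and less RNA per cell cannot be told apart.

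APP, gene ENSG00000142192.21 on the minus strand of chr21:25880535-26171128, was the most abundant member, with 22116 to 42168 counts per library. It stood at 897, 909 and 895 CPM in Viperin + Insulin, 909, 910 and 951 CPM in Viperin, 764, 714 and 727 CPM in Insulin, and 855, 805 and 805 CPM in Control. The 6 Viperin OE libraries all lay above the 6 empty vector libraries. The 3 Insulin libraries lay below every Control library, whereas the Viperin + Insulin and Viperin libraries overlapped. Group means were 901 ± 7.52 CPM in Viperin + Insulin, 923 ± 24.1 CPM in Viperin, 735 ± 26.2 CPM in Insulin and 822 ± 28.6 CPM in Control (SD, n = 3 each). On the log2 scale, Viperin differed from Control by 0.17 (95% interval 0.10 to 0.24) and Viperin + Insulin from Insulin by 0.29 (0.22 to 0.36). Insulin differed from Control by -0.16 (-0.23 to -0.09). Viperin + Insulin differed from Viperin by -0.04 (-0.11 to 0.03). In the fit across all 23041 genes tested, APP was called higher or lower (an adjusted p under 0.05) in the first 3 of these and not in the last.

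APLP2, the other ubiquitous member of the family, lies on the plus strand of chr11:130068147-130144811 (ENSG00000084234.17). Its values were 473, 469 and 460 CPM in Viperin + Insulin and 472, 468 and 480 CPM in Viperin. They were 441, 400.1 and 426 CPM in Insulin and 466, 454 and 462 CPM in Control. The Insulin libraries were the low ones, each below all 9 libraries of the other groups. Insulin differed from Control by -0.13 on the log2 scale (-0.20 to -0.06), a call lost without Insulin 2 or Insulin 3 (log2 values -0.09 and -0.13). Viperin + Insulin differed from Insulin by 0.15 (0.08 to 0.22), a call lost without Insulin 2 or Viperin + Insulin 1 (log2 values 0.11 and 0.13). Viperin against Control gave 0.04 (-0.03 to 0.11) and was not called, although its 3 libraries lay above the 3 of Control.

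APLP1, the paralog known mainly from neurons, lies on the plus strand of chr19:35867899-35879792 (ENSG00000105290.12) and was far less abundant. Its values were 17.1, 17.6 and 16.0 CPM in Viperin + Insulin, 16.3, 17.1 and 20.7 CPM in Viperin, 13.7, 13.0 and 14.9 CPM in Insulin, and 16.0, 15.5 and 18.5 CPM in Control. As for APP and APLP2, the Insulin libraries were below those of every other group. Insulin differed from Control by -0.27 (-0.43 to -0.11), a call lost without Control 3, Insulin 1 or Insulin 2 (log2 values -0.26 to -0.18). Viperin + Insulin differed from Insulin by 0.28 (0.13 to 0.44), a call lost without any one of Insulin 1, Insulin 2, Viperin + Insulin 1 and Viperin + Insulin 2 (log2 values 0.24 to 0.27). Viperin differed from Control by 0.10 (-0.06 to 0.25), which was not called.

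**Figure D1:**
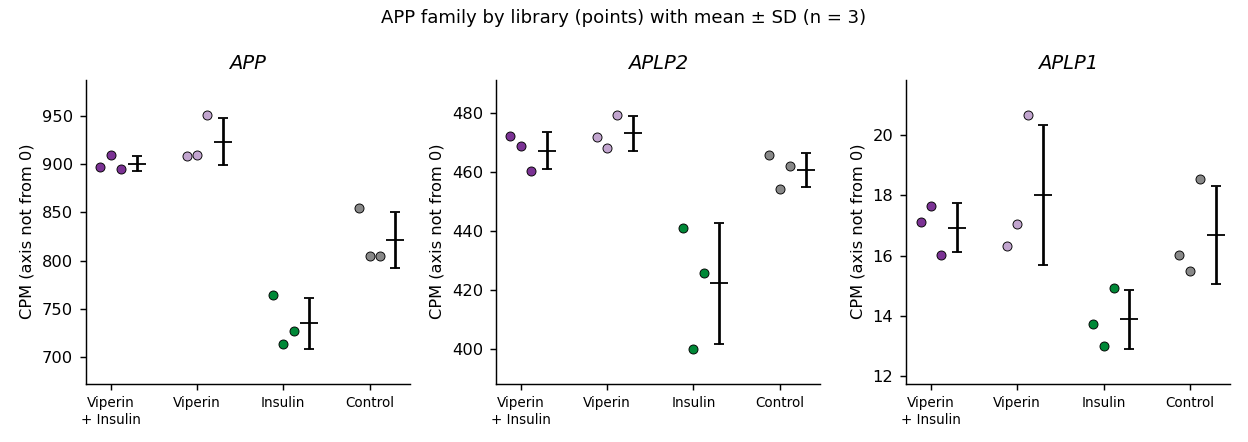
CPM of APP, APLP2 and APLP1 in each library (points) with the mean and SD of each group of 3 beside them, on axes that do not start at 0. The Insulin group is the lowest for each gene, with means of 735 CPM for APP, 422 CPM for APLP2 and 13.9 CPM for APLP1.

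The insulin response of the family was set between the plasmids by the difference of the responses, Viperin + Insulin minus Viperin less Insulin minus Control. For APP it was 0.12 on the log2 scale (0.03 to 0.22), for APLP2 0.11 (0.01 to 0.21) and for APLP1 0.19 (-0.04 to 0.41). None of the 3 was called, with adjusted p = 0.726 for APP, 0.829 for APLP2 and 0.913 for APLP1 in edgeR over all genes. The response of APP to insulin was called with the empty vector and not with Viperin, but it is not shown to differ between the plasmids. Over all genes this difference had 0 calls in edgeR and 0 in DESeq2, with 1296 genes in edgeR and 865 in DESeq2 at an unadjusted p under 0.05. It had 0 to 26 calls with 1 library left out, 37 with no filter on low counts and 17 with the replicate block, and 0 members in each. On simulated counts for this comparison the fit recovered 32 of 50 genes changed 1.25-fold and 49 of 50 changed 1.5-fold, with 9 false calls. The differences of APP (1.09-fold), APLP2 (1.08-fold) and APLP1 (1.14-fold) were below 1.25-fold, the smallest change simulated. The simulation thus does not tell whether differences of their size would be called.

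Of the beta-secretases, BACE1 is the main enzyme that starts amyloid beta production, and BACE2 is its paralog, which also cuts other membrane proteins. BACE1, on the minus strand of chr11:117285232-117316259 (ENSG00000186318.16), stood at 61.6, 61.6 and 63.9 CPM in Viperin + Insulin and 66.6, 67.7 and 67.3 CPM in Viperin. It stood at 60.6, 65.4 and 59.6 CPM in Insulin and 66.6, 64.4 and 69.7 CPM in Control. The 3 Viperin + Insulin libraries lay below the 3 of Viperin, and the Insulin and Control libraries overlapped at 1 library. Neither insulin comparison alone was called, with -0.11 (-0.19 to -0.02) for Viperin + Insulin against Viperin and -0.11 (-0.20 to -0.03) for Insulin against Control. Over both plasmids insulin gave -0.11 (-0.17 to -0.05), a call lost without Insulin 3 (log2 value -0.10). Viperin over both insulin states gave 0.01 (-0.05 to 0.07) and was not called.

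BACE1 shares 3037 exon bases with its antisense transcript BACE1-AS and 1223 with RNF214, both on the other strand. Unstranded counting kept only 36.2% to 39.9% of the BACE1 counts that the reverse-strand column held. Reads on the opposite strand of BACE1 were 14.5% to 18.7% of both strands. BACE1-AS stood at 7.39 ± 0.61 CPM in Viperin + Insulin, 7.92 ± 0.69 CPM in Viperin, 6.38 ± 0.55 CPM in Insulin and 7.74 ± 0.97 CPM in Control (SD, n = 3 each). It was not called in any of the 7 comparisons, and its log2 difference was -0.18 for insulin over both plasmids (-0.33 to -0.04).

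BACE2, on the plus strand of chr21:41167801-41282530 (ENSG00000182240.16), had only 130 to 221 counts per library. It stood at 4.86, 4.07 and 4.69 CPM in Viperin + Insulin, 5.37, 5.16 and 5.27 CPM in Viperin, 3.56, 4.23 and 4.17 CPM in Insulin, and 5.72, 5.15 and 5.02 CPM in Control. The 6 insulin-treated libraries all lay below the 6 vehicle libraries. Insulin differed from Control by -0.41 (-0.65 to -0.16), a call lost without any one of Control 1, Control 2, Insulin 1, Insulin 2 and Insulin 3 (log2 values -0.45 to -0.33). Over both plasmids insulin gave -0.31 (-0.48 to -0.14), the largest member difference of that comparison, and the call was kept with each library left out. Viperin over both insulin states gave 0.10 (-0.07 to 0.27) and was not called.

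Of the gamma-secretase genes, NCSTN was the only one called in any comparison. It codes for nicastrin, the large outer subunit that gates access of substrates, and lies on the plus strand of chr1:160343294-160358952 (ENSG00000162736.17). Its values were 64.6, 63.3 and 61.9 CPM in Viperin + Insulin, 65.5, 68.7 and 73.8 CPM in Viperin, 56.3, 58.5 and 56.0 CPM in Insulin, and 60.2, 63.6 and 61.5 CPM in Control. The Insulin libraries lay below all others and the Viperin libraries above all others, so NCSTN had the order of groups that APP had. Viperin differed from Control by 0.16 (0.07 to 0.25), a call lost without any one of Control 1, Control 3, Insulin 3, Viperin 2 and Viperin 3 (log2 values 0.12 to 0.17). Viperin + Insulin differed from Insulin by 0.15 (0.06 to 0.24). That call was lost without any one of 7 libraries (the 3 of Insulin, the 3 of Viperin + Insulin and Viperin 1, log2 values 0.13 to 0.17) and in 5 other settings. Over both insulin states Viperin gave 0.16 (0.09 to 0.22), and over both plasmids insulin gave -0.12 (-0.19 to -0.06). Both of these averaged differences kept their calls with each library left out.

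The other gamma-secretase genes had no call in any comparison. APH1A, a scaffold of the complex on the minus strand of chr1:150265399-150269580 (ENSG00000117362.13), had group means of 136 ± 3.16 CPM in Viperin + Insulin, 136 ± 5.43 CPM in Viperin, 135 ± 2.68 CPM in Insulin and 136 ± 1.18 CPM in Control (SD, n = 3 each). Its highest group mean was 1.01 times its lowest, and the interval for Viperin over both insulin states ran from -0.05 to 0.06 and that for insulin over both plasmids from -0.06 to 0.05 on the log2 scale. The APH1A values thus lay near 0, with both ends of these intervals within 0.06 of it. PSEN2, the presenilin analysed here, lies on the plus strand of chr1:226870184-226927726 (ENSG00000143801.17) and had 8.70 ± 0.49 CPM in Viperin + Insulin, 9.37 ± 0.71 CPM in Viperin, 9.69 ± 0.82 CPM in Insulin and 9.36 ± 0.14 CPM in Control. PSENEN, the smallest subunit, lies on the plus strand of chr19:35745600-35747519 (ENSG00000205155.8) and had 6.93 ± 0.51 CPM in Viperin + Insulin, 7.51 ± 0.41 CPM in Viperin, 7.69 ± 0.70 CPM in Insulin and 7.97 ± 0.41 CPM in Control. At 204 to 426 counts per library, their intervals for Viperin over both insulin states were wide, -0.20 to 0.05 for PSEN2 and -0.25 to 0.03 for PSENEN. PSENEN shares 285 exon bases with another counted gene on the same strand, so some of its reads may have stayed uncounted.

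**Figure D2:**
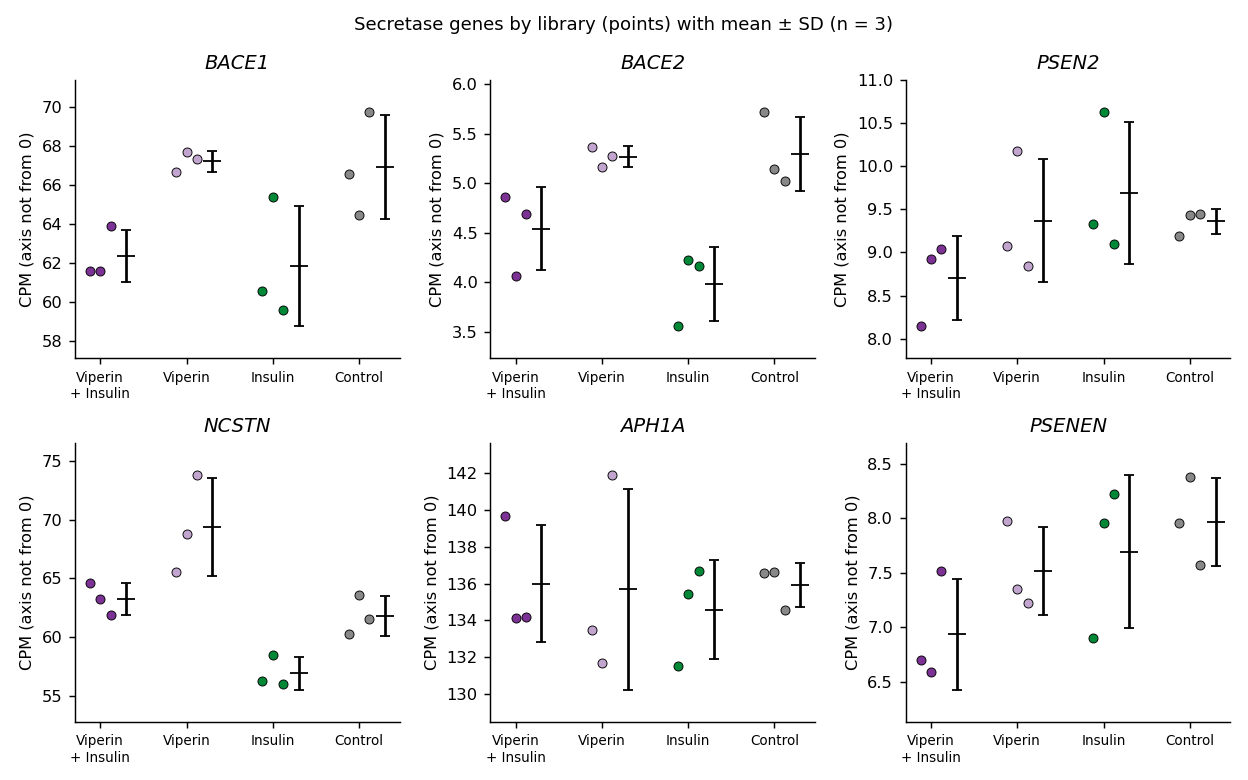
CPM of the 6 secretase genes in each library (points) with the mean and SD of each group of 3 beside them, on axes that do not start at 0. NCSTN is lowest in the Insulin group at 56.9 CPM and highest in Viperin at 69.3 CPM, BACE2 is lower in the insulin-treated groups, and the 4 groups of APH1A overlap.

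Counts of members called are read beside the share of all genes called. Viperin against Control called 2 members higher (APP and NCSTN) and 0 lower, where 1.25% of all genes tested were called higher and 1.04% lower. Viperin + Insulin against Insulin called 4 higher (APP, APLP1, APLP2 and NCSTN) and 0 lower, where 2.09% of genes were called higher and 0.994% lower. Insulin against Control called 0 higher and 4 lower (APP, APLP1, APLP2 and BACE2), where 2.53% of genes were called higher and 2.96% lower. Viperin + Insulin against Viperin called 0 members in either direction, where 2.17% of genes were called higher and 2.39% lower. The number of all genes called moved with single libraries. For Viperin against Control it was 528, against 1102 without Control 1 and 308 to 332 without any one of Control 2, Control 3, Viperin 1, Viperin 2 and Viperin 3. For Viperin + Insulin against Insulin it was 711, against 278 to 380 without any one of Insulin 2, Insulin 3, Viperin + Insulin 1 and Viperin + Insulin 2. For Insulin against Control it was 1265, against 627 without Insulin 2 and 702 without Insulin 3. For Viperin + Insulin against Viperin it was 1050, against 615 to 693 without any one of Viperin 2, Viperin + Insulin 1 and Viperin + Insulin 3. Since the set was selected on these contrasts, nothing is read from the members' counts against these shares. The Insulin group stands in both comparisons that called 4 members, and each other group also stands in more than 1 comparison, so these counts are not independent of each other.

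Over both insulin states, Viperin called the same 4 members higher and 0 lower, where 4.47% of genes were called higher and 3.49% lower. The log2 differences were 0.23 for APP (0.18 to 0.28), 0.19 for APLP1 (0.08 to 0.30), 0.16 for NCSTN (0.09 to 0.22) and 0.09 for APLP2 (0.04 to 0.14). The APLP1 call was lost without any one of Control 2, Insulin 2, Viperin 3, Viperin + Insulin 1 and Viperin + Insulin 2 (log2 values 0.14 to 0.18), and that of APLP2 without Insulin 2 (0.07). Over both plasmids, insulin called 0 members higher and 6 lower, where 5.76% of genes were called higher and 5.97% lower. These were BACE2, APLP1 at -0.18 (-0.29 to -0.07), NCSTN, BACE1, APP at -0.10 (-0.15 to -0.05) and APLP2 at -0.07 (-0.12 to -0.02). The APLP2 call was lost without any one of 9 of the 12 libraries (log2 values -0.08 to -0.05, all but Control 2, Control 3 and Insulin 1) and also with unstranded counts, no filter on low counts or the replicate block. That of APLP1 was lost without any one of 5 (Control 3, Insulin 1, Insulin 2, Viperin 3 and Viperin + Insulin 3, -0.17 to -0.13). The difference of the insulin responses called 0 members, where 0% of genes were called higher and 0% lower. The median over the 9 members was 0.09 for Viperin over both insulin states, where that of all genes was 0.00, and -0.10 for insulin over both plasmids, where that of all genes was also 0.00.

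**Figure D3:**
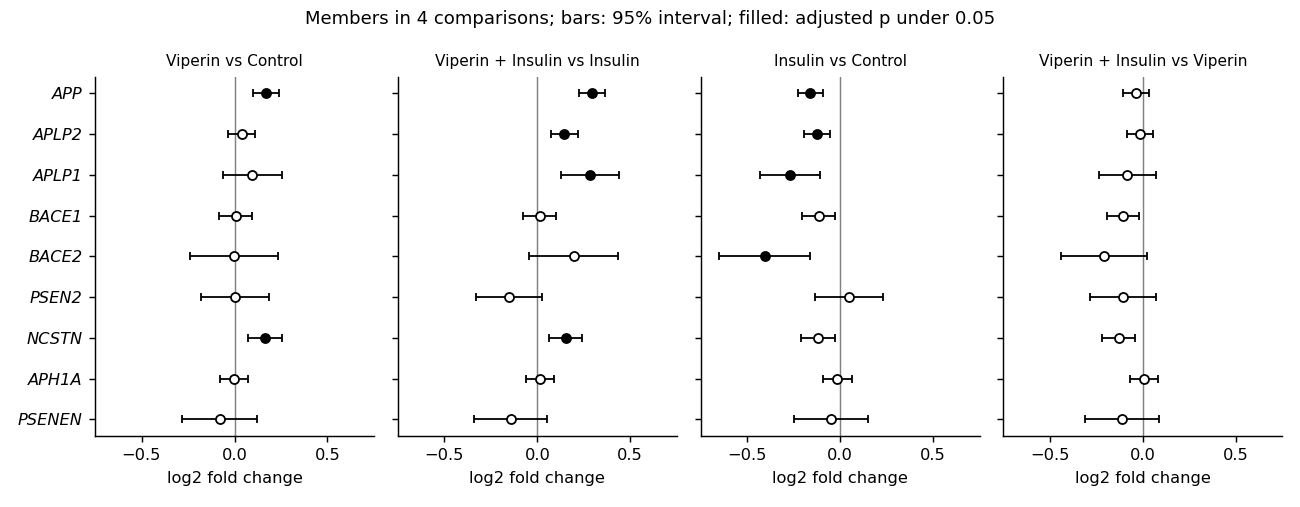
Log2 fold changes of the 9 members in 4 comparisons, with 95% intervals, and filled points for an adjusted p under 0.05 over all genes tested. APP lies at 0.17 and 0.29 in the comparisons of Viperin plasmid with empty vector and at -0.16 for Insulin against Control, and no member is filled for Viperin + Insulin against Viperin.

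Levels are compared between genes per length, as CPM per kilobase of all annotated exon bases of a gene. On this scale APP had a mean level of 128 and ranked 194 of 14819 protein-coding genes, followed by APLP2 at 61.1 (rank 545) and APH1A at 39.0 (rank 965). A middle group held BACE1 at 7.43, PSENEN at 5.54, NCSTN at 5.47 and APLP1 at 4.63. PSEN2 at 0.566 and BACE2 at 0.495 were the lowest. The ranges over 12 libraries did not overlap between APP (108 to 144), APLP2 (53.6 to 64.3) and APH1A (37.9 to 40.8). Those of PSENEN (4.85 to 6.16), NCSTN (4.87 to 6.42) and APLP1 (3.67 to 5.84) overlapped, as did those of PSEN2 (0.497 to 0.648) and BACE2 (0.369 to 0.594). With the longest transcript as the length, places 4 to 7 were taken by NCSTN, BACE1, APLP1 and PSENEN, so the order within the middle group depends on the length used. PSEN2 and BACE2 kept places 8 and 9 but stood further apart, at means of 1.80 and 0.544, so their nearness also depends on it.

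**Figure D4:**
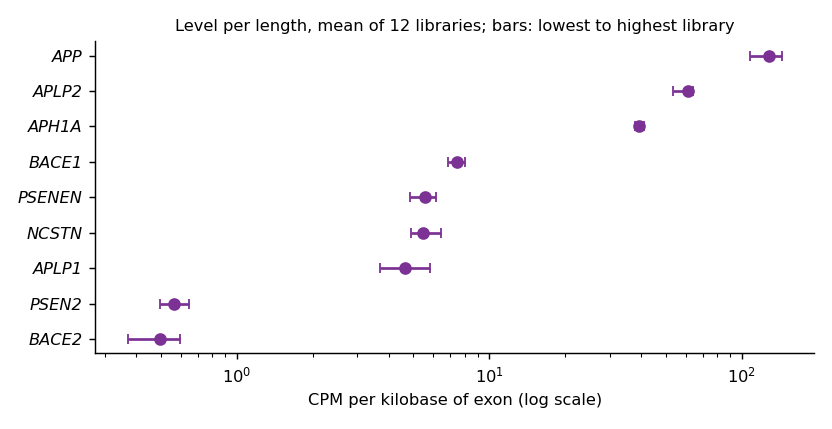
Mean CPM per kilobase of exon of each member over 12 libraries on a log axis, with bars from the lowest to the highest library. APP at 128 lies above APLP2 at 61.1 and APH1A at 39.0, and PSEN2 and BACE2 lie below 1.

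The genes whose pattern over the 12 libraries was most like that of APP were ranked by Pearson r of log2 CPM among 9361 genes with a mean of at least 10 CPM. The first 5 were LAMA3 (r = 0.976), DAPK1 (0.976), LAMB2 (0.960), FBN1 (0.959) and LAMB1 (0.959). LAMA3, LAMB2 and LAMB1 code for laminin chains of the basement membrane, FBN1 for a microfibril protein of the extracellular matrix and DAPK1 for a calcium-regulated kinase linked to cell death. LAMA3 averaged 19.1 ± 0.39 CPM in Viperin + Insulin, 20.6 ± 0.68 CPM in Viperin, 14.6 ± 1.01 CPM in Insulin and 17.3 ± 1.30 CPM in Control (SD, n = 3 each). Of the other members, APLP2 ranked 73 (r = 0.908), NCSTN 281 (0.831) and APLP1 487 (0.772), while BACE1 ranked 2655 (0.319) and APH1A 3352 (0.191). BACE2 (r = 0.540), PSEN2 (-0.49) and PSENEN (-0.45) were under 10 CPM and were not ranked. All points share the same libraries and 4 groups, so these values describe a shared pattern of groups, and 0 of these 5 genes were among the first 5 by Spearman rho.

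The other genes of the pathway were taken from 6 lists of 69 genes, of which 64 passed the filter. The lists were written with earlier results of these data known. Their counts, medians and adjusted p-values are therefore a description, and nothing is read from them against the values of all genes. Viperin over both insulin states called 19 of the 64 higher and 3 lower, where 4.47% and 3.49% of all genes were called, and insulin over both plasmids 4 higher and 13 lower, where 5.76% and 5.97% were. Their median log2 difference was 0.07 for Viperin, where that of all genes was 0.00, and -0.02 for insulin. Without Control 1 and Viperin 3, which had the highest shares of read pairs mapped to several places (13.9% and 12.1%), the counts were 21 higher and 6 lower for Viperin and 5 higher and 12 lower for insulin.

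Of the 4 other secretase genes, the 3 alpha-secretases rose with Viperin over both insulin states and APH1B, a paralog of APH1A, was not called. ADAM9 averaged 282 ± 5.04 CPM in Viperin + Insulin and 288 ± 2.39 CPM in Viperin, against 259 ± 9.33 CPM in Insulin and 256 ± 6.51 CPM in Control, a log2 difference of 0.15 (SE 0.03, adjusted p = 3.16e-05). ADAM17, which also sheds tumor necrosis factor, rose by 0.14 (SE 0.03, adjusted p = 0.000234), with every Viperin OE library above every empty vector library. ADAM10, the main alpha-secretase of neurons, rose by 0.08 (SE 0.02, adjusted p = 0.0456) and its libraries overlapped. ADAM17 was also higher with insulin over both plasmids, by 0.08 (adjusted p = 0.0348).

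Of the 8 tested genes of amyloid beta proteases and carriers, 3 rose and 1 fell with Viperin, and 0 rose and 5 fell with insulin. Legumain (LGMN), a lysosomal protease that also cuts APP, averaged 93.0 ± 1.54 CPM in Viperin + Insulin and 95.3 ± 3.36 CPM in Viperin, against 82.1 ± 2.30 CPM in Insulin and 80.3 ± 2.35 CPM in Control, and rose by 0.21 (adjusted p = 1.56e-07). The insulin-degrading enzyme IDE, which also degrades amyloid beta, was lower with Viperin, at 118 ± 4.30 CPM in Viperin + Insulin and 114 ± 2.70 CPM in Viperin, against 132 ± 4.00 CPM in Insulin and 125 ± 0.73 CPM in Control (log2 difference -0.15, adjusted p = 9.34e-05). Neprilysin (MME), another protease of amyloid beta, was higher with Viperin by 0.15 (adjusted p = 0.000566) and lower with insulin (-0.17, adjusted p = 2.26e-05). Clusterin (CLU), an extracellular chaperone that binds amyloid beta, was likewise higher with Viperin (0.12, adjusted p = 0.00277) and lower with insulin (-0.19, adjusted p = 8.09e-07). The lysosomal proteases CTSB (-0.18, adjusted p = 5.45e-07) and CTSD (-0.11, adjusted p = 0.00530) and the endothelin-converting enzyme ECE1 (-0.14, adjusted p = 0.000214) also fell with insulin.

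Of the 20 genes of trafficking, 7 rose and 0 fell with Viperin, and 1 rose and 4 fell with insulin. SORL1, a sorting receptor that carries APP away from the endosomes where BACE1 acts, averaged 8.65 ± 0.54 CPM in Viperin + Insulin, 10.9 ± 0.61 CPM in Viperin, 7.69 ± 0.15 CPM in Insulin and 8.54 ± 1.17 CPM in Control. It rose with Viperin by 0.27 (adjusted p = 0.00467) and fell with insulin (-0.24, adjusted p = 0.00836). The related receptor SORT1 rose with Viperin by 0.13 (adjusted p = 0.000294). The endocytic receptor LRP1 rose with Viperin by 0.29 (adjusted p = 0.0400) and fell with insulin (-0.26, adjusted p = 0.0470). LRP1 was not called in any comparison within a plasmid or within an insulin state. Its Control 1 library, at 247 CPM, lay above the Viperin + Insulin libraries (208 to 227 CPM). LRP8, a lipoprotein receptor, was the 1 that rose with insulin, by 0.11 (adjusted p = 0.00989). ITM2B and ITM2C code for BRI proteins that bind APP, and both were called higher with Viperin and lower with insulin. ITM2C rose with Viperin by 0.14 (adjusted p = 0.000391) and fell with insulin (-0.08, adjusted p = 0.0421). ITM2B averaged 171 ± 5.59 CPM in Viperin + Insulin, against 201 ± 6.70 CPM in Viperin, and 162 ± 4.45 CPM in Insulin, against 188 ± 2.20 CPM in Control, and fell with insulin over both plasmids (-0.22, adjusted p = 9.21e-10).

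Of the 13 adaptors of the tail, 2 rose and 1 fell with Viperin and 0 rose and 1 fell with insulin. DAB2, an endocytic adaptor that binds motifs of the kind printed above, rose with Viperin by 0.19 (adjusted p = 0.00019), and the signalling adaptor SHC1 fell (-0.10, adjusted p = 0.0186). APBB1 (Fe65), which binds the APP tail, fell with insulin (-0.13, adjusted p = 0.000807). APBB3, at 2.98 to 4.18 CPM in the group means, rose with Viperin by 0.38 (adjusted p = 0.0119).

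Of the 14 tested other substrates of the secretases, 4 rose and 1 fell with Viperin, and 2 rose and 3 fell with insulin. NRG1, a growth factor that BACE1 and ADAM proteases release, averaged 48.8 ± 1.93 CPM in Viperin + Insulin and 41.4 ± 1.97 CPM in Viperin, against 57.3 ± 0.48 CPM in Insulin and 55.5 ± 4.27 CPM in Control. It fell with Viperin (-0.33, adjusted p = 1.47e-10), opposite in direction to APP. With insulin over both plasmids NRG1 was called higher, by 0.14 (adjusted p = 0.00255). It was called in Viperin + Insulin against Viperin (0.24) and not in Insulin against Control (0.05). The difference of these responses was not called. The adhesion molecule L1CAM rose with Viperin by 0.21 (adjusted p = 5.25e-08). CD44, the hyaluronan receptor, averaged 1214 ± 40.9 CPM in Viperin + Insulin, against 1493 ± 33.7 CPM in Viperin, and 1293 ± 95.8 CPM in Insulin, against 1554 ± 33.6 CPM in Control, and fell with insulin (-0.28, adjusted p = 2.34e-12). EFNB2, a ligand of Eph receptors, rose with insulin by 0.26 (adjusted p = 8.19e-05). The Notch ligand JAG1 rose with Viperin by 0.21 (adjusted p = 0.00116). Of the 5 tested Notch target genes, 0 were called in any of the 7 comparisons. Their group means were only 0.0412 CPM (HEYL in Viperin) to 3.72 CPM (HES1 in Insulin), which limits what could be called for them.

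**Figure D5:**
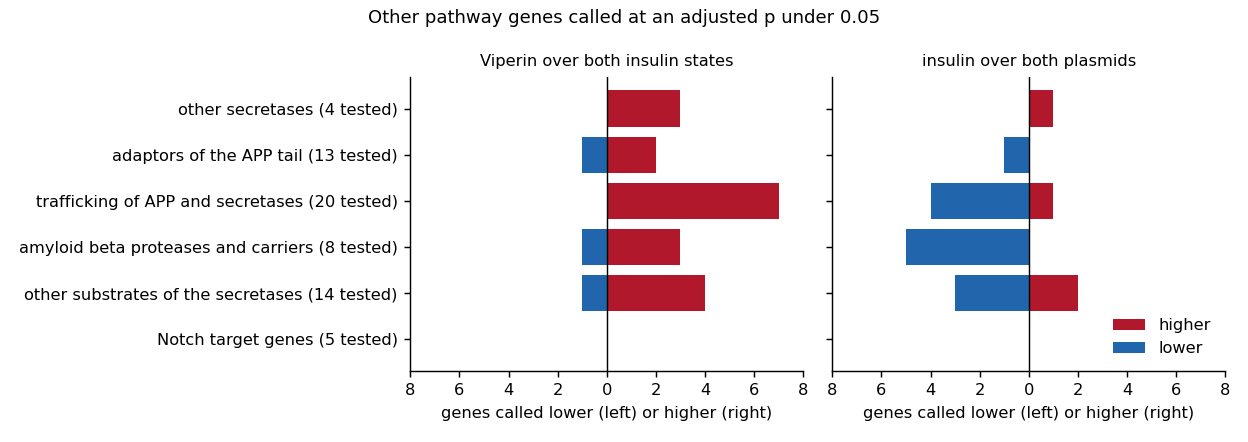
Number of other pathway genes called higher (right) or lower (left) at an adjusted p under 0.05 for Viperin over both insulin states and insulin over both plasmids, by list with the number tested. Trafficking shows 7 higher and 0 lower with Viperin, and amyloid beta proteases and carriers show 0 higher and 5 lower with insulin.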

How the data were processed

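Read pairs were trimmed (cutadapt, Trim Galore), quality checked (FastQC) and aligned to hg38 by the authors, and the counts they deposited are those STAR wrote for each gene, raw, without strand and for each strand. Versions of these tools are not given, and the annotation release named in the methods is a mouse one. The treatment text speaks of an empty pBabe vector, whereas the sample labels and methods state pCAG, taken here as right. The reverse-strand counts were used, 94.1% to 94.3% of reads assigned to a strand. GENCODE release 44 named 60357 of the 60617 identifiers.

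The 23041 genes averaging 1 or more counts a library were normalized by TMM, and 4 group means were fitted in edgeR 4.0.16 (R 4.3.3) by the robust quasi-likelihood test, on all 12 libraries, with Benjamini-Hochberg adjustment over all genes. A call is an adjusted p under 0.05, and the study's 0.001 was also tried. Each plasmid was compared within each insulin state and each insulin state within each plasmid, which gave 4 comparisons, beside insulin averaged over both plasmids, Viperin averaged over both insulin states, and the difference of the insulin responses. Fold changes are on the log2 scale with a prior count of 0.125, and log2 CPM for the correlations with one of 2. Standard errors were the log2 fold change divided by the root of F. The study weighted its DESeq2 hypotheses with IHW, which was left out here.

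The members and the gene lists were chosen with earlier results of these data known. The text names the 9 members, RSAD2, the 5 genes most like APP, and BACE1-AS and RNF214, which share exon bases with BACE1. Genes that share exon bases with APP, APLP1, PSEN2, NCSTN, APH1A or PSENEN are not named. Also named are up to 4 genes of a list with the smallest p in a comparison. The list genes printed with values were picked from these with the values in view. The other presenilin was not analysed here. Sequences were cut from GENCODE release 44 transcripts.

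Alternatives were RLE size factors, library sizes without RSAD2 and mitochondrial genes, DESeq2 1.42.0, other filters, unstranded counts, a fit on just the pair of groups compared, the replicate number as a block and each library left out in turn. Replicate numbers did not pair the libraries: deviations of same-numbered libraries correlated at -0.23 to 0.18 over 18 pairs. In a test on simulated data with the counts of Viperin and Control, the fit recovered 41 of 50 genes changed 1.25-fold and 50 of 50 changed 1.5-fold, with 4 false calls among 22503 genes, and 32 and 49 of 50 for the difference of the insulin responses, with 9 false calls among 22506. Tables and figures were made with Python 3.11.15, pandas 2.3.3 and matplotlib 3.10.9.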

Additional observations from a re-analysis of the deposited data

How the results depend on the processing

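The calls of APP at an adjusted p under 0.05 were kept under every alternative run. So were those of NCSTN in both averaged comparisons and of BACE2 for insulin over both plasmids. The alternatives refit the same libraries that the set was chosen from. The kept calls are thus a description and give no separate support for the differences. Over 1296 recomputed fold changes of the members, 1228 kept their side of the threshold, 65 lost a call and 3 gained one. Of the calls, 0 reversed in direction. The direction of values that stayed uncalled was not compared, and values uncalled in both fits count among the 1228. At an adjusted p under 0.001, members called were 0 for Viperin against Control, 0 for Insulin against Control, 1 (APP) for Viperin + Insulin against Insulin, 0 for insulin over both plasmids and 2 (APP and NCSTN) for Viperin over both insulin states, beside 70, 272, 109, 904 and 473 of all genes. With only the groups compared in the fit, they were 1, 2 and 1 for Viperin against Control, Insulin against Control and Viperin + Insulin against Viperin, beside 235, 994 and 1575 of all genes. With 1 library left out in turn, they ranged from 1 to 2 for Viperin against Control, 1 to 4 for Insulin against Control, 0 to 1 for Viperin + Insulin against Viperin (1 without Control 3 or Viperin 1), 1 to 4 for Viperin + Insulin against Insulin, 4 to 6 for insulin over both plasmids and 2 to 4 for Viperin over both insulin states. Over all genes these ranges were 308 to 1102, 627 to 1360, 615 to 1393, 278 to 1039, 2131 to 2816 and 1289 to 2420. The group that loses a library keeps 2, and its spread is assumed equal to that of the rest. Without Control 1 and Viperin 3 together, chosen after seeing the data, Viperin against Control called 1 member and 928 genes in all. The other pathway genes called ranged from 16 to 27 for Viperin over both insulin states and 13 to 19 for insulin over both plasmids over the same settings, also chosen after seeing the data.

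The replicate numbers did not pair the libraries. With the replicate block, members called were 2 for Viperin against Control, 4 for Insulin against Control and 0 for Viperin + Insulin against Viperin. They were 4 for Viperin + Insulin against Insulin and 5 for insulin over both plasmids, where APLP2 lost its call. For Viperin over both insulin states they were 4. In the same order, 488, 1224, 1012, 705, 2634 and 1747 of all genes were called. Of the 12 libraries, 2 correlated best with their own number. The causes of the lost calls were not tested. PSEN2, PSENEN and BACE2 had 130 to 426 counts per library, which limits what could be called for them.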
